A study of Gallus gallus with 41 samples.

Results

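The genes described here encode RNA-binding proteins of the ELAVL and RBPMS families, read in 41 cells of the embryonic chick retina, each measured on an array of its own. They were chosen by gene symbol alone: the list held 6 genes, ELAVL1, ELAVL2, ELAVL3, ELAVL4, RBPMS and RBPMS2. In the platform annotation 14 of 38535 probe sets carried one of these symbols, 3 for ELAVL1, 5 for ELAVL2, 2 for ELAVL4, 3 for RBPMS and 1 for RBPMS2. ELAVL3 was on 0 of them and is not analysed here, which leaves 5 genes of the 13009 that a probe set with 1 symbol names.

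Retinas of embryonic day 3 (E3) to E15 were dissociated with papain, and cells were picked by glass pipette and lysed without culture. Poly(A) RNA of each cell was primed with oligo dT, amplified by PCR and hybridised to an Affymetrix chicken array. There were 6 cells at E3, 3 at E4, 5 at E5, 10 at E6, 1 at E7, 6 at E9, 8 at E14 and 2 at E15. The labels name no strain, genotype, treatment or embryo for any group, so the cells of an age may share an embryo and were counted as 1 sample. They also name no cell type: a cell is described below by its age and by the genes detected in it.

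ELAVL proteins, also called Hu proteins, bind AU-rich elements in messenger RNA and affect its stability, splicing and translation. ELAVL1 (HuR) is found in most cell types, whereas ELAVL2 (HuB), ELAVL3 (HuC) and ELAVL4 (HuD) are mainly neuronal, and antibodies to them are widely used to mark postmitotic neurons. RBPMS and RBPMS2 (Hermes) carry an RNA recognition motif. RBPMS is a marker of retinal ganglion cells in rodents, and RBPMS2 is known from retinal ganglion cells of the frog and zebrafish.

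Values are log2 MAS5 signals as the authors deposited them. Detection of a gene in a cell was set at the 80th percentile of the cell's array, so 20% of all probe sets are detected in each cell by construction. Means are given after signals below the median of the whole table (log2 5.004) were raised to that floor, since the order of such low signals carries little information. Each gene was read from its probe set of highest mean over the 41 cells. Signals of different probe sets are not on a common scale, so levels are compared across cells within a gene and not between genes.

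Background differed between arrays. Medians were log2 6.82 to 7.88 on the 3 arrays of E4, on that of E6 replicate 7 and on the 2 of E15, against 3.90 to 5.50 on the other 35. A gene had to reach log2 8.46 to 9.82 to count as detected on these 6 arrays, and 5.47 to 7.29 on the others. The 3′ end of ACTB, cytoskeletal actin, exceeded its 5′ end on the log2 scale. That excess was 6.65 ± 1.98 in the 6 cells of E3, 5.07 ± 1.41 in the 3 of E4, 2.50 ± 1.12 in the 5 of E5, 1.94 ± 1.55 in the 10 of E6, 3.27 in the E7 cell, 1.27 ± 0.53 in the 6 of E9, 3.08 ± 0.80 in the 8 of E14 and 5.65 ± 2.39 in the 2 of E15 (mean ± SD); a larger excess goes with shorter cDNA. Its means were highest at E3, E4 and E15, ages at which ELAVL4 and RBPMS2 were detected in at most 1 cell. What background and cDNA length contributed to the results below was not tested. As a check of the tissue, the eye field genes PAX6 and SIX6 were detected in 37 and 34 of the 41 cells, SIX3 and LHX2 in 13 and 10, and SOX2, a factor of neural progenitors, in 1. The check was weaker at the ends of the series. At E3, PAX6 was detected in 3 of 6 cells and SIX6 in 6 of 6, and at E15 each was detected in 1 of 2.

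ELAVL4 was read from its probe set of highest mean, and its other probe set, described below, was detected in 3 of 8 E14 cells. By the probe set read, ELAVL4 was high in every cell of E6, E9 and E14 and in part of the E5 cells. It was not detected in any E4, E7 or E15 cell. At E6 its signal ran from 8.27 to 15.58 with a median of 13.77, at E9 from 12.13 to 14.07 with a median of 12.95, and at E14 from 13.03 to 15.13 with a median of 14.20. The 24 cells of these ages all counted as detected, and the 3 ranges overlapped. E6 replicates 5 and 6 were the lowest of them, at 9.32 and 8.27.

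The 5 E5 cells fell far apart in ELAVL4. Replicates 1, 2 and 3 had 14.76, 15.28 and 14.99, while replicates 4 and 5 had 0.67 and 3.90. The 3 E4 cells had 5.29, 5.44 and 5.14, and the E7 cell had 4.04. These values lay near or below the floor. The E15 cells had 7.76 and 9.30, which was under the detection limit of their arrays and also under every E14 cell.

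At E3, ELAVL4 ran from 0.30 to 13.03 with a median of 3.06. The highest value belonged to replicate 3, the only E3 cell in which ELAVL4 was detected; the next was 6.50. By age, the mean ± SD of floored values was 6.59 ± 3.21 over the 6 cells of E3, 5.29 ± 0.15 over the 3 of E4, 11.01 ± 5.48 over the 5 of E5, 13.06 ± 2.47 over the 10 of E6, 12.99 ± 0.68 over the 6 of E9, 14.23 ± 0.73 over the 8 of E14 and 8.53 ± 1.09 over the 2 of E15. In order of these means, E14, E6 and E9 stood next to each other and differed by less than the spread at E6.

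RBPMS2 gave the cleanest division of the cells. At E3 its signal ran from 0.39 to 3.57 with a median of 1.84, so all 6 cells were below the floor. At E6 it ran from 10.04 to 14.03 with a median of 12.02. The groups were thus separated by a wide gap, and detection went from 0 of 6 cells (exact 95% interval 0 to 45.9%) to 10 of 10 (69.2 to 100%). Such intervals cover counting error only and take cells as independent, so they are no test between ages.

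At E9, RBPMS2 ran from 11.37 to 13.61 with a median of 12.28, and at E14 from 10.74 to 15.58 with a median of 14.42. Detection was 6 of 6 (54.1 to 100%) and 8 of 8 (63.1 to 100%). Of the 8 E14 cells, 6 lay above the highest E6 cell, while replicate 4 at 10.74 and replicate 7 at 13.35 lay within the E6 range. The floored mean ± SD was 11.85 ± 1.31 over the 10 cells of E6, 12.49 ± 0.94 over the 6 of E9 and 14.15 ± 1.54 over the 8 of E14, and the ranges of neighbouring ages overlapped.

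The E5 cells divided in RBPMS2 as they did in ELAVL4. Replicates 1, 2 and 3 had 14.17, 15.77 and 13.87, and replicates 4 and 5 had 2.43 and -0.39. The E4 cells had 7.51, 6.46 and 7.41 on arrays of high background, the E7 cell had 1.68, and the E15 cells had 4.91 and 7.13. RBPMS2 was detected in none of these 6 cells.

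**Figure D1:**
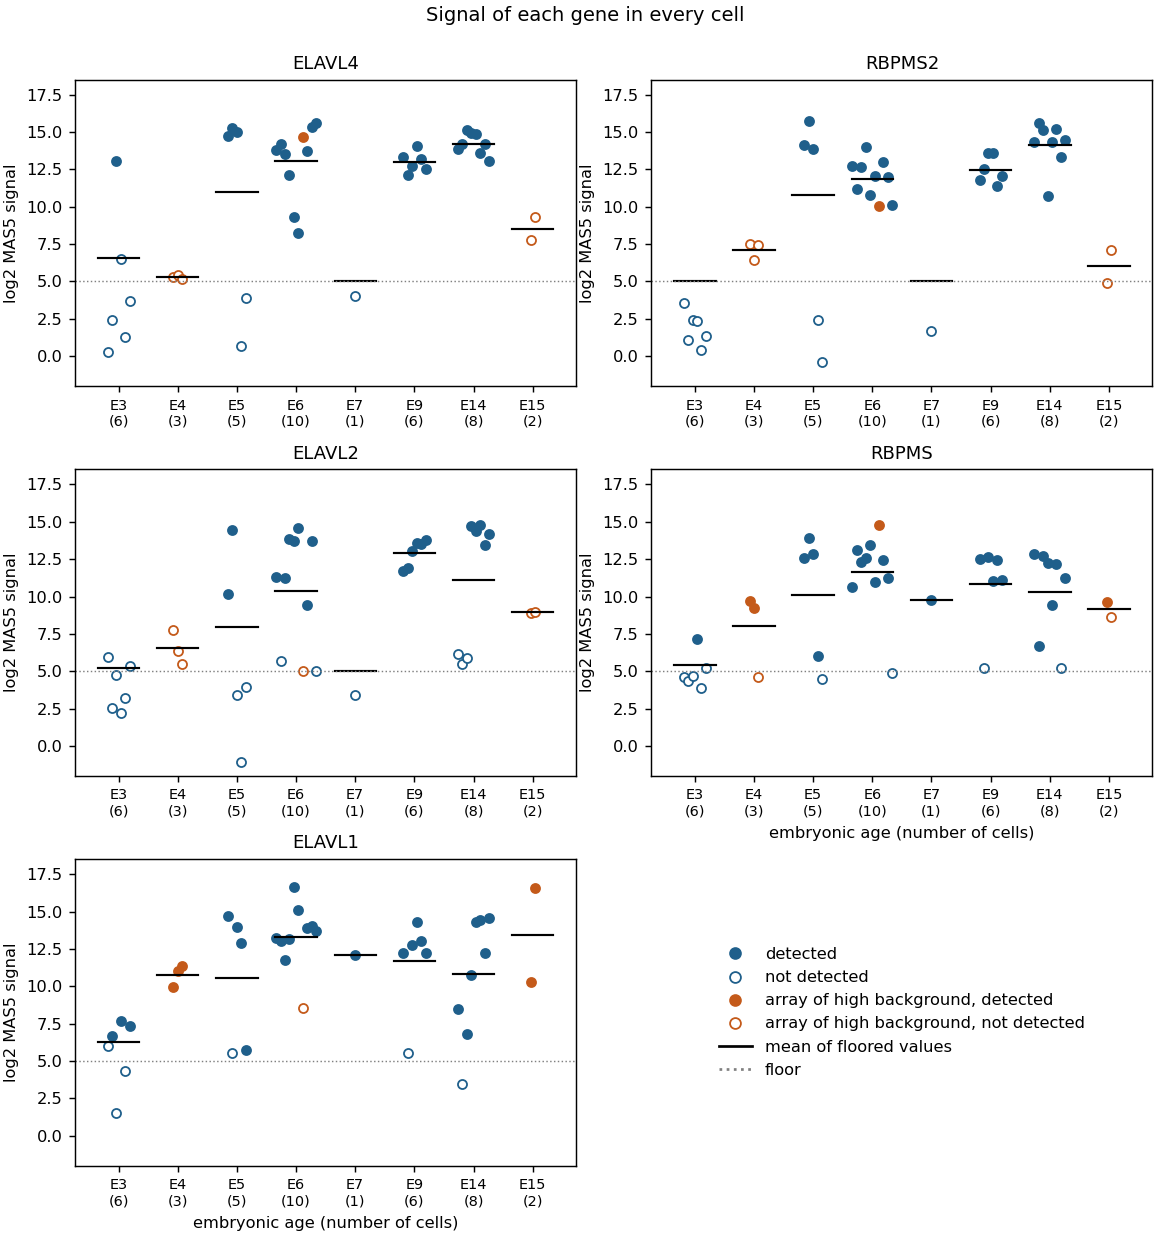
Log2 MAS5 signal of each gene (y axis) in every cell, by embryonic age (x axis, number of cells in brackets, cells of an age side by side in order of replicate number); filled points are detected, orange points are arrays of high background, black lines are means of floored values and the dotted line is the floor of log2 5.004. Each gene is shown by the probe set read for it. ELAVL4 and RBPMS2 are high in all 24 cells of E6, E9 and E14 and in 3 of 5 E5 cells. ELAVL2 is low in 3 of 10 E6 and 3 of 8 E14 cells, and ELAVL1 has detected cells at every age, those of E3 lying close to their limit.

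Whether the E3 and E6 cells overlapped was counted for every probe set tested on age. Of 24917, 187 (0.75%) were higher in each E6 cell than in any E3 cell. Among the 5 genes, by the probe sets read, RBPMS2 and ELAVL1 were in that group. The probe set read for ELAVL4 was not, because of E3 replicate 3. Its other probe set was, with at most 6.62 at E3 and at least 11.28 at E6. From E14 to E15, 307 probe sets (1.23%) were lower in each E15 cell than in any E14 cell. Those read for ELAVL4 and RBPMS2 were among them. The other ELAVL4 probe set was not, with 6.72 and 8.21 at E15 against 2.32 to 11.92 at E14. On the E15 arrays, which had high background, 31.3% of probe sets were higher in both E15 cells than in any E14 cell. What background contributed to the E15 counts was not tested. None of the 5 genes was separated between E6 and E9 or between E9 and E14, in either direction. With 1 sample per age these steps have no test.

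In a count made after its values were seen, RBPMS2 was one of 17 probe sets (0.0682% of 24917) detected in 0 of 6 E3 cells and in all 24 cells of E6, E9 and E14. The other named genes in it were ANK2 (ankyrin of axons), ASTN1 (astrotactin, a neuronal adhesion protein), GPM6A, HMP19, ROBO2 (an axon guidance receptor), RTN1, SCG3 (secretogranin of secretory granules), SNAP25 (which helps synaptic vesicles fuse), STMN2 (a microtubule regulator of growing axons) and TMEM163. Requiring also 0 of 2 cells at E15 left 4 probe sets, of which the 2 with a symbol were ASTN1 and RBPMS2.

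**Figure D2:**
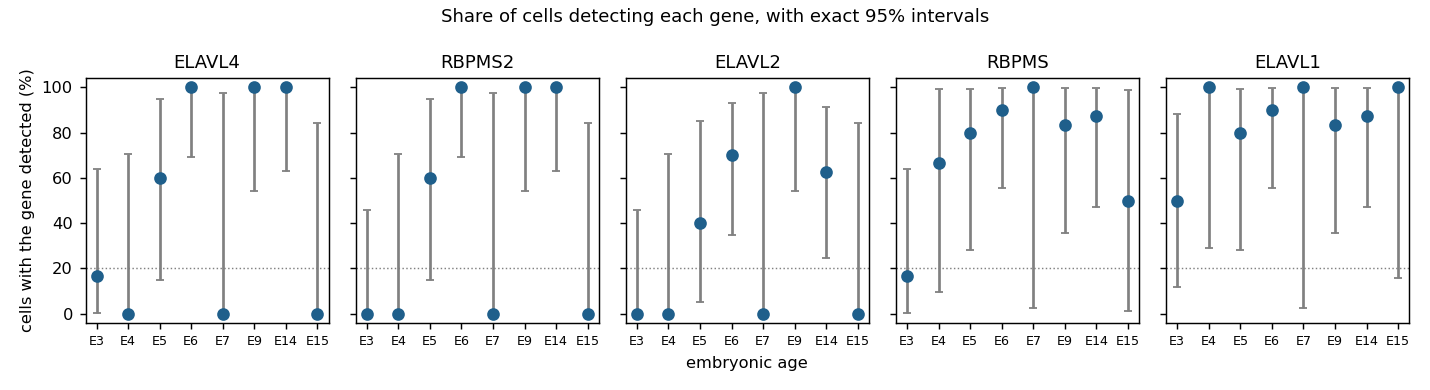
Percent of cells in which each gene was detected (y axis) at each embryonic age (x axis), with exact Clopper-Pearson 95% intervals that cover counting error only; the dotted line at 20% is the share of all probe sets detected on each array by construction. Shares are those of the probe set read for each gene. ELAVL4 and RBPMS2 were detected in 10 of 10, 6 of 6 and 8 of 8 cells at E6, E9 and E14. They were detected in 0 of 3, 0 of 1 and 0 of 2 at E4, E7 and E15, where the intervals are wide.

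ELAVL2, the other neuronal Hu gene with probe sets here, was either high or low among cells of the same age. At E6 it ran from 5.01 to 14.61 with a median of 11.27 and was detected in 7 of 10 cells. Replicates 2, 7 and 10 had 5.72, 5.01 and 5.03 and the other 7 had 9.44 or more. At E14 it was detected in 5 of 8 cells: replicates 1, 2 and 3 had 6.16, 5.46 and 5.90, and replicates 4 to 8 had 13.43 to 14.76, with no cell between.

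At E9 ELAVL2 was detected in 6 of 6 cells, from 11.73 to 13.78 with a median of 13.29. At E5 replicates 1 and 2 had 10.17 and 14.48, while replicate 3, which was high in ELAVL4 and RBPMS2, had 3.38; replicates 4 and 5 had -1.04 and 3.98. At E3 it ran from 2.17 to 5.95 with a median of 3.96 and was detected in 0 of 6 cells. The E4 cells had 7.79, 6.36 and 5.49, the E7 cell 3.38 and the E15 cells 8.90 and 8.98, none of them detected by this probe set. The floored mean ± SD was 5.22 ± 0.38 over 6 cells of E3, 10.37 ± 3.86 over 10 of E6, 12.93 ± 0.88 over 6 of E9 and 11.12 ± 4.40 over 8 of E14; the last 3 differed by less than the spread within E6 or E14.

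RBPMS was detected in 30 of 41 cells, against 27 for RBPMS2. At E6 it ran from 4.88 to 14.80 with a median of 12.39 (9 of 10 cells). At E9 it ran from 5.23 to 12.62 with a median of 11.77 (5 of 6 cells), and at E14 from 5.20 to 12.87 with a median of 11.71 (7 of 8 cells). The undetected cells were E6 replicate 10, E9 replicate 2 and E14 replicate 7, all of them high in ELAVL4 and RBPMS2.

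Unlike RBPMS2, RBPMS was detected in the E7 cell (9.77), in E4 replicates 1 and 2 (9.72 and 9.26, against 4.59 in replicate 3) and in E15 replicate 2 (9.65, against 8.63 in replicate 3). At E5, replicates 1 to 3 had 12.58, 13.90 and 12.87, replicate 4 had 5.99 and replicate 5 had 4.50. At E3 it ran from 3.90 to 7.16 with a median of 4.67, and only replicate 4 was just above its limit. The detected E3, E4 and E15 signals lay close to the limit of their arrays, whereas the E7 signal lay well above its limit of 7.24. With a limit at the 90th percentile, this probe set was detected in 0 cells of E3, E4, E7 and E15.

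ELAVL1 was detected at every age with the limit at the 80th percentile, but in 0 of 6 E3 cells with the limit at the 90th. It was detected in 34 of 41 cells (82.9%, interval 67.9 to 92.8%), including all 3 E4 cells (9.94, 11.02 and 11.34), the E7 cell (12.06) and both E15 cells (10.26 and 16.60). At E3 it ran from 1.51 to 7.65 with a median of 6.34 (3 of 6 cells). At E6 it ran from 8.52 to 16.62 with a median of 13.49, and the lowest cell, replicate 7 on an array of high background, lay above the highest E3 cell without reaching its own detection limit.

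At E5 ELAVL1 was 14.69, 5.51, 13.95, 12.88 and 5.71 in replicates 1 to 5, so it was high in cells with and without ELAVL4. At E9 it ran from 5.52 to 14.32 with a median of 12.50 (5 of 6 cells), and at E14 from 3.44 to 14.59 with a median of 11.50 (7 of 8 cells). The floored mean ± SD was 6.28 ± 1.14 over 6 cells of E3, 10.77 ± 0.74 over 3 of E4, 13.31 ± 2.12 over 10 of E6, 11.67 ± 3.11 over 6 of E9 and 10.83 ± 3.73 over 8 of E14. The means of E4, E9 and E14 differed by less than the spread within E9.

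The probe sets of a gene did not always tell the same story. The other probe set of ELAVL4 reached detection in all 10 cells of E6, with 11.28 to 13.93, and in 5 of the 6 of E9, but in 3 of the 8 of E14, where it ran from 2.32 to 11.92 with a median of 4.996. It was also detected in 1 of the 3 E4 cells, replicate 1 at 10.52, on an array of high background. At E14 only replicates 3, 5 and 7 had it detected, at 11.92, 10.26 and 9.03. In E3 replicate 3, the cell with ELAVL4 at 13.03, this probe set gave 2.43. In all, 28 cells had ELAVL4 detected by the probe set read for the gene, 21 by the other and 20 by both; their Pearson correlation over the 41 cells was 0.48.

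Among the other probe sets of RBPMS, 1 was detected in 21 cells, all of them among the 30 with RBPMS (r = 0.65). The last was detected in 9 cells (r = 0.15), among them 2 of 2 at E15, at 9.99 and 11.04, and 1 of 8 at E14. Counting a cell when any RBPMS probe set was detected gave 2 of 2 at E15, where the probe set read gave 1. The 4 further probe sets of ELAVL2 were detected in 12, 11, 5 and 0 cells against 20 for the one read, with r from -0.34 to 0.37. Counting a cell when any ELAVL2 probe set was detected gave 9 of 10 cells at E6 and 2 of 2 at E15, where the probe set read gave 7 and 0, and 1 of 6 at E3; the count at E14 stayed at 5 of 8. In the E15 cells the detected signals were 10.01 in replicate 2 and 9.88 in replicate 3, from different probe sets and close to their limits of 9.61 and 9.82. The 2 further probe sets of ELAVL1 were detected in 6 cells each against 34, with r of 0.20 and 0.17. Where on the transcripts these probe sets lie was not analysed here. Statements about a gene, above and below, hold for the probe set read unless another is named.

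**Figure D3:**
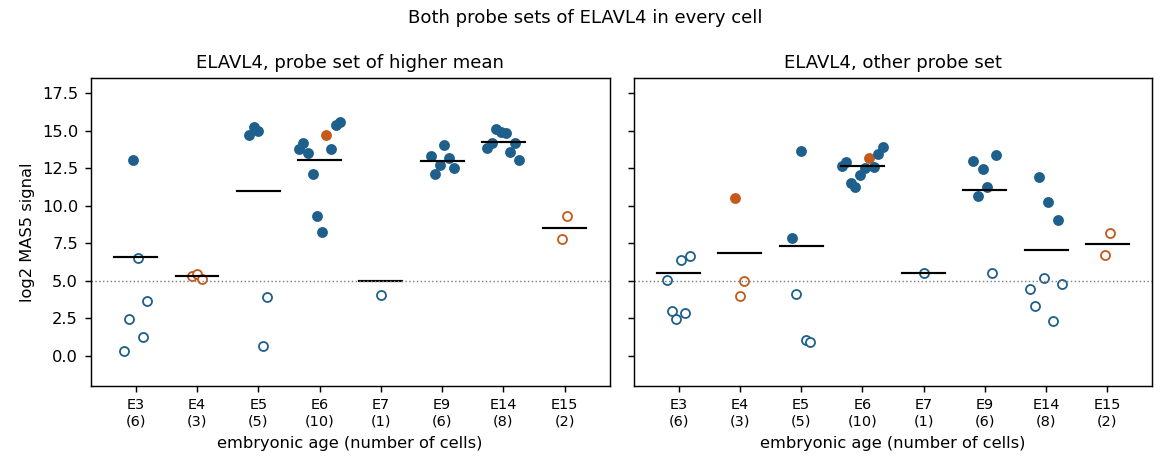
Log2 MAS5 signal of both ELAVL4 probe sets (y axis) in every cell by embryonic age (x axis, number of cells in brackets, order of replicate number); symbols and colours are filled for detected, orange for arrays of high background, a black line for the mean of floored values and a dotted line for the floor. The probe set of higher mean is detected in 8 of 8 E14 cells and the other in 3 of 8.

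ELAVL2, ELAVL4 and RBPMS2 were detected largely in the same cells, and RBPMS also in cells without them. RBPMS2 was detected in 27 cells and ELAVL4 in 28: 27 cells had both, 1 (E3 replicate 3) had ELAVL4 alone, and 13 had neither. All 20 cells with ELAVL2 had ELAVL4 and RBPMS2 too. ELAVL2, ELAVL4, RBPMS and RBPMS2 were all detected in 18 cells: 2 at E5, 7 at E6, 5 at E9 and 4 at E14.

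A further 6 cells lacked only ELAVL2 (1 at E5, 2 at E6 and 3 at E14), 2 lacked only RBPMS (1 at E9 and 1 at E14), and E6 replicate 10 lacked both of these. RBPMS was the only one of the 4 detected in 6 cells (1 at E3, 2 at E4, 1 at E5, the E7 cell and 1 at E15). Nothing of the 4 was detected in 7 cells, 4 at E3 and 1 each at E4, E5 and E15. ELAVL1, in contrast, was detected in 11 of the 13 cells with neither ELAVL4 nor RBPMS2, and in 23 of 28 cells with ELAVL4. The likeness of these shares depends on the limit. At the 90th percentile ELAVL1 was detected in 0 of 6 cells at E3, 2 of 3 at E4 and 3 of 5 at E5. At that limit it was detected in 9 of 10 cells at E6, 5 of 6 at E9 and 6 of 8 at E14, and in the E7 cell and 2 of 2 at E15.

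Over the 41 cells the floored signals of ELAVL4 and RBPMS2 had a Pearson correlation of 0.84 (0.70 by Spearman), and 0.84 over the 35 cells without arrays of high background. Within E6, E9 and E14, where every cell had both genes, it was -0.17 (10 cells), 0.21 (6 cells) and -0.33 (8 cells). The 5 E5 cells held both kinds, 3 cells high in both genes and 2 low in both, and no value was computed within that age. Other pooled values ran from 0.27 (ELAVL1 and ELAVL4) to 0.63 (RBPMS and RBPMS2). ELAVL1 and ELAVL2, at 0.50 over all cells, had 0.59 at E6, 0.61 at E9 and 0.91 at E14; the 3 E14 cells without ELAVL2 were the lowest in ELAVL1 as well (8.49, 3.44 and 6.78). Cells share an amplification protocol and, within an age, possibly an embryo, so these are descriptions without a test.

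Apart from E3 replicate 5, the cells before E9 in which neither ELAVL4 nor RBPMS2 was detected had 14 or more of a list of 24 cell cycle genes detected. E5 replicates 4 and 5 had 16 and 18 detected, and E5 replicates 1, 2 and 3 had 4, 6 and 2. The E4 cells had 20, 19 and 21 and the E7 cell 22. The E3 cells had between 7 and 21, against 2 to 9 at E6, 4 to 8 at E9 and 3 to 7 at E14. The 20% detected by construction holds over all probe sets. The 24 genes were each read from the probe set of highest mean, so no number of them is fixed in advance.

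E3 replicate 3, the E3 cell with ELAVL4, had 21 cell cycle genes detected. E3 replicate 5, with 7, had none of ELAVL2, ELAVL4, RBPMS and RBPMS2 detected. Both E15 cells lacked ELAVL4 and RBPMS2 as well, with 8 and 4 cell cycle genes. In them the bipolar cell gene VSX1 and OTX2, a factor of bipolar cells and photoreceptors, were detected in 2 of 2. PRKCA, TRPM1 and GNG13 were detected in 1 of 2 and GRIK1, NYX and CABP2 in 0 of 2, so that 2 to 5 of the 8 listed bipolar cell genes were detected in a cell, against 2 to 4 in the E14 cells. Over all 41 cells VSX1 and OTX2 were detected in 11 and 10. Genes of other lists were detected in 2 of 2 E15 cells too. Among them were TFAP2A (amacrine), ARR3 (photoreceptor), SOX9 and SLC1A3 (Muller glia) and CSF1R (microglia). Of 10 photoreceptor genes, 4 to 5 were detected in an E15 cell, against 0 to 6 in an E14 cell. The E15 cells had 6 and 4 of 14 ganglion cell genes detected, with STMN2 and THY1 in 2 of 2. At E14 each cell had 7 to 9 of these 14 detected.

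**Figure D4:**
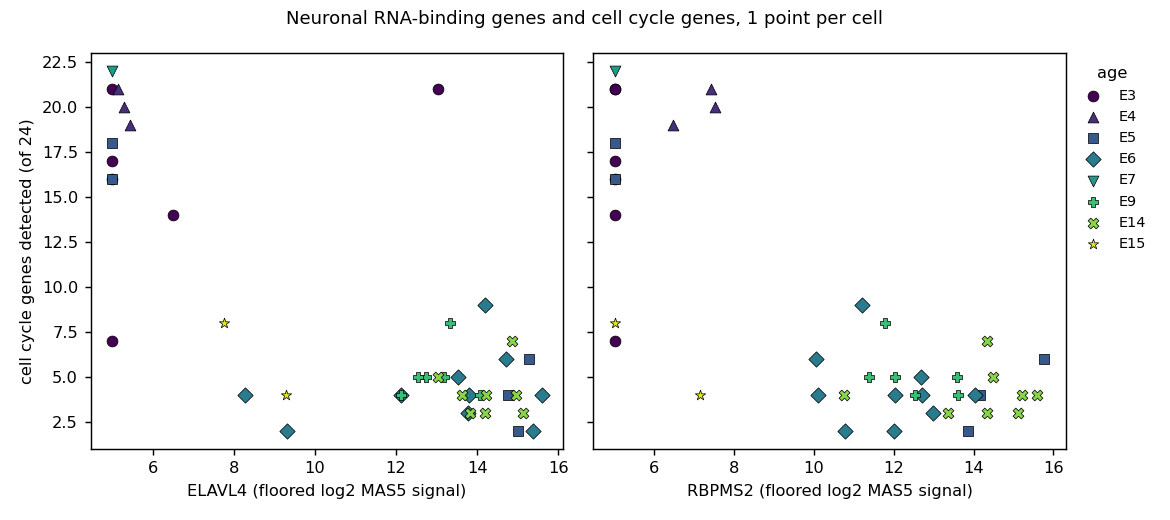
Number of 24 cell cycle genes detected in a cell (y axis) against the floored log2 MAS5 signal of ELAVL4 and of RBPMS2 (x axes), 1 point per cell, coloured by embryonic age. RBPMS2 above log2 10 goes with 9 or fewer cell cycle genes, E3 replicate 3 has 21 beside an ELAVL4 signal of 13.03, and E3 replicate 5 has 7 with both genes at the floor.

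The correlation of floored signal with the mean over the cell cycle list was -0.82 for RBPMS2, -0.77 for ELAVL4, -0.59 for ELAVL2, -0.54 for RBPMS and -0.36 for ELAVL1 (41 cells, no test). With the mean over 14 ganglion cell genes it was 0.83 for both RBPMS2 and ELAVL4, 0.61 for ELAVL2, 0.60 for RBPMS and 0.43 for ELAVL1. The genes of that list were unevenly detected over the 41 cells. NEFL, NEFM and STMN2 were detected in 31, 30 and 29 cells, but POU4F2, SLC17A6, ATOH7 and GAP43 in 16, 7, 3 and 2. How far the list mean marks ganglion cells rather than neurons in general was not tested. At E6 alone, ELAVL4 had 0.29 with the cell cycle and 0.21 with the ganglion cell list, and RBPMS2 had -0.49 and -0.53. For lists of cells outside the neural retina, 0 to 3 of 9 pigment epithelium genes, 0 to 3 of 7 microglia genes and 0 to 2 of 5 oligodendrocyte genes were detected in a cell over all ages. The lens list had 0 to 5 of 7, the vascular and mesenchymal list 2 to 7 of 10 and the erythroid list 0 to 4 of 4. Their part in the results was not tested.

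Among 10706 named genes tested on age, those most like RBPMS2 over the 41 cells were ANK2 (r = 0.92), TMEM163 (0.89) and ASTN1 (0.88). ANK2 was detected in 29 cells, all 27 with RBPMS2 among them. ELAVL4 was most like ANK2 (0.87) and the neurofilament subunits NEFM (0.86) and NEFL (0.85), which hold axons in shape; NEFM and NEFL were each detected in all 28 cells with ELAVL4.

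ELAVL2 was most like HK1 (hexokinase, 0.72), NDFIP1 (0.68) and TMEM163 (0.68), and all 3 were detected in each of its 20 cells. RBPMS was most like TMEM163 (0.71), STMN2 (0.70) and MAP6 (a microtubule stabiliser, 0.69). For ELAVL1 the values were lower, with ANKRD10 at 0.66, SPTBN1 (spectrin) at 0.66 and CHN1 (chimaerin) at 0.64. These genes were picked as the highest of many, which raises their values.

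The only test the ages allow is a slope per embryonic day through 8 time point means, each mean weighted by its cells. None of the 5 genes passed the threshold in limma after adjustment over all probe sets, where 33 of 24917 probe sets (0.132%) were called. RBPMS2 had a slope on the log2 scale of 0.45 ± 0.17 a day (SE over 8 time points), with an adjusted p of 0.573 in limma, ELAVL4 0.44 ± 0.18 (adjusted p = 0.640) and ELAVL2 0.39 ± 0.16 (adjusted p = 0.657). RBPMS and ELAVL1 both had 0.20 ± 0.17, with unadjusted limma p of 0.238 and 0.241.

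At an unadjusted p under 0.05, slopes were positive for 3 of the 5 genes (RBPMS2, ELAVL4 and ELAVL2), against 3.53% of all probe sets tested. That count takes 1 probe set per gene. The other probe set of ELAVL4 had a slope of -0.03, and the other ELAVL2 probe sets tested had 0.0008, -0.02 and 0.08. Their unadjusted limma p ran from 0.390 to 0.993. The median slope of the 5 probe sets read was 0.39, beside 0.02 over all probe sets tested. These medians are not like for like, because the 5 were picked as the highest mean of each gene and the rest were not. The other probe sets of ELAVL1 had slopes of -0.01 and 0.12, and those of RBPMS 0.11 and 0.12. Of the 14 probe sets, 13 passed the filter on low values and 0 were called. A straight line does not describe the course of ELAVL4 and RBPMS2, which were detected in all cells of E6, E9 and E14 and in none of E7 and E15. Without E3 the slope of ELAVL1 was -0.047 and that of RBPMS -0.020.

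Other RNA-binding proteins of neural cells gave no call either. Of a list of 45, 37 were tested, 23 had a positive slope, and limma called 0 in either direction; at an unadjusted p under 0.05, 2 had a positive and 1 a negative slope, against 3.53% and 1.17% of all probe sets. Their median slope was 0.02. CPEB1, a regulator of cytoplasmic polyadenylation, had 0.30 ± 0.10 per day (limma adjusted p = 0.366), and was detected in 0 of 6 E3, 2 of 10 E6, 2 of 6 E9 and 5 of 8 E14 cells. NOVA1, a neuronal splicing regulator, had 0.34 ± 0.14 (adjusted p = 0.645), with 3 of 6 cells at E3 and all cells at E6, E9, E14 and E15.

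IGF2BP3, an RNA-binding protein of embryonic and dividing cells, had the opposite sign at -0.48 ± 0.16 (adjusted p = 0.342). Its floored mean was 15.12 ± 0.97 at E3 (SD, n = 6) and 9.57 ± 3.39 at E6 (n = 10), with 6 of 6 and 6 of 10 cells detected. PTBP1, a splicing repressor that falls in differentiating neurons of mammals, had -0.17 ± 0.14 with detection in 3 of the 6 cells of E3, 5 of the 10 of E6, 3 of the 6 of E9 and 0 of the 8 of E14. RBM24 had 0.17 ± 0.12, IGF2BP2 -0.13 ± 0.13 and STAU1, a carrier of messenger RNA in dendrites, 0.21 ± 0.15, and the unadjusted limma p was 0.150 or more for all 3.

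Proteins that share AU-rich elements with ELAVL proteins, or act on the poly(A) tail, were followed in a list of 16, of which 12 were tested. A positive slope was found in 4, the median was -0.05, and limma called 0. At an unadjusted limma p under 0.05 there were 0 positive slopes and 1 negative, against 3.53% and 1.17% of all probe sets tested. That gene was HNRNPDL at -0.39 ± 0.17 (adjusted p = 0.767), found in 4 of the 6 cells of E3, all cells of E6 and E9 and 2 of the 8 of E14. HNRNPD (AUF1), which promotes decay of such messages, had -0.31 ± 0.17 and TIA1, a translational silencer, -0.20 ± 0.14. PABPC1, the poly(A)-binding protein, had -0.10 ± 0.12 and was detected in 41 of 41 cells. AUH, ZFP36L1 and PAIP1 had 0.07 ± 0.10, 0.08 ± 0.13 and 0.02 ± 0.07.

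Messenger RNAs reported as ELAVL targets, mostly in mammals, made a list of 20, of which 14 were tested, 8 with a positive slope and 0 called by limma. At an unadjusted limma p under 0.05 there were 2 positive slopes and 1 negative, against 3.53% and 1.17% of all probe sets tested. The median slope was 0.03. CDKN1A, the cell cycle inhibitor p21, had 0.27 ± 0.09 (limma adjusted p = 0.404) and was detected in 0 of 6 E3 and 4 of 8 E14 cells. CCNB1 (cyclin B1) had -0.50 ± 0.17 (adjusted p = 0.410), with 5 of 6 E3 and 3 of 8 E14 cells. NOVA1 is on this list too. ACHE, acetylcholinesterase, had 0.21 ± 0.13 and was detected in 3 of 10 E6 and 7 of 8 E14 cells, and CTNNB1 (beta-catenin), MYCN and CCNA2 had -0.02 ± 0.17, -0.16 ± 0.15 and -0.17 ± 0.17.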

How the data were processed

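The authors deposited log2 values for 38535 probe sets and 41 cells, and per the submitters' processing notes MAS5 was the tool; neither its version nor a genome build is given in the sources used here. The trimmed mean of the linear signal (2% off each end) lay at 500 to 500.2, so arrays were left as scaled by the authors. Each of the 41 columns belongs to a sample; the series text speaks of 39 cells. Arrays give no counts, and precision is limited by how many cells there are.

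Names come from the platform annotation; all 5 member genes keep their symbol, by gene ID, in RefSeq genes of GRCg7b, where RBPMS is also a synonym of RBPMS2. No coordinates or sequences are given, since none were used here. Control probe sets (96) were left out. Ages follow the titles, also for E6 replicate 1, whose source name says E5. The test took probe sets detected in 3 or more cells. Time point means of floored values were fitted on day with limma 3.58.1 (R 4.3.3; lmFit, and eBayes with a trend; 6 residual and 77.8 prior degrees of freedom), with Benjamini-Hochberg adjustment over 24917 probe sets and a threshold of 0.05. The p-values measure scatter of 8 time point means around a line, which may be technical, and lean on a variance shared across probe sets. The fit was also run on values shuffled over the cells, with straight slopes added to some probe sets. Shuffling removes differences between ages, so that run cannot show whether a course that is not straight would be called. Shares carry Clopper-Pearson 95% intervals (scipy 1.17.1). Named genes are the members, the 3 genes most correlated with each member (those detected in at least 8 cells), and from each of the 3 lists of RNA-binding and target genes any called gene, the 3 of smallest p in each direction and the 2 of highest mean. Other genes were named after their values were seen. The members and lists were chosen with earlier results of these data known. Alternatives covered the floor, normalization, weights, filter, arrays, ages, detection limit and probe set.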

Additional observations from a re-analysis of the deposited data

Results flagged for a closer look

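Of 24 groups of 5 to 10 cells (5 genes at 5 ages, less 1 group with every cell at the floor), 6 held a cell that stood apart by Dixon's gap criterion on floored values. For normal values, chance alone marks about 1 in 20 groups. That rate does not hold for groups with cells tied at the floor, such as ELAVL4 and RBPMS at E3 with 4 of 6 cells there. ELAVL4 was 13.03 in E3 replicate 3, where the next E3 cell had 6.50. RBPMS was 4.88 in E6 replicate 10 and 5.23 in E9 replicate 2, both below cells of 10.63 or more, and 7.16 in E3 replicate 4, the highest there. ELAVL1 was 5.52 in E9 replicate 2, the same cell that was low in RBPMS. RBPMS2 was 10.74 in E14 replicate 4, below the 13.35 or more of the other E14 cells and still detected.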

How the results depend on the processing

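Of the 5 genes, 0 were called under any of the 59 alternatives; the lowest adjusted p was 0.0958 for RBPMS2 and 0.102 for ELAVL4. Slopes ran from 0.24 to 0.66 for RBPMS2, 0.21 to 0.60 for ELAVL4 and 0.11 to 0.54 for ELAVL2. For ELAVL1 and RBPMS the sign turned without E3: leaving out 1 time point or cell gave -0.047 to 0.51 and -0.020 to 0.34. The count of called probe sets, 33, was 0 with no floor, quantile normalization, a common 75th percentile, equal weights or without arrays of high background. It was 2 with the floor at the 25th percentile, 55 with no filter, 53 with E6 replicate 1 at E5, 81 without the cells of later accession, 9 with the mean of all probe sets of a gene, and 0 to 121 on leaving out 1 time point or cell; it was 0 without E4 and 121 without E6. The share of all 41 cells detecting ELAVL4, 68.3%, was 48.8% when both probe sets were required (an alternative added after seeing the data). That of RBPMS, 73.2%, was 56.1% at the 90th percentile. That of ELAVL1, 82.9%, was 68.3% at the 90th percentile, and that of ELAVL2, 48.8%, was 61.0% with any probe set. That of RBPMS2, 65.9%, was the same at the 70th and 90th percentiles and 74.3% without arrays of high background. Shares within an age could move further. ELAVL1 at E3 went from 50% to 0% at the 90th percentile, and ELAVL2 at E15 from 0% to 100% with any probe set. RBPMS2 kept its share at every age. No paired analysis was possible because the cells of an age count as 1 sample and replicate numbers only name cells.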

Other observations

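Several RNA-binding genes were detected in most E6 and E9 cells and fewer E14 cells, unlike ELAVL4 and RBPMS2 by the probe sets read. They were chosen after their values were seen and have no test. Over the 41 other neural RNA-binding genes with a probe set, the median number detected in a cell was 17 at E6, 18 at E9 and 14.5 at E14. Over the 12 genes of the AU-rich element list it was 7.5, 7.5 and 5. MSI1, the progenitor and stem cell protein Musashi, was detected in 2 of 6 E3, 10 of 10 E6, 5 of 6 E9 and 2 of 8 E14 cells, with floored means of 11.70 ± 3.01 at E6 (SD, n = 10) and 7.36 ± 3.29 at E14 (n = 8). CELF2, CELF4 and KHDRBS3 reached detection in all 6 cells of E9 and in 9, 8 and 9 of the 10 of E6, but in 4 of the 8 of E14 each and in 1, 3 and 3 of the 6 of E3. HNRNPD did so in 9 of the 10 of E6, 5 of the 6 of E9 and 3 of the 8 of E14. Both cells of E15 had KHDRBS3 and MSI1. The second probe set of ELAVL4 had a like course. The 3′ excess of ACTB was 1.94 ± 1.55 for E6 (SD, n = 10), 1.27 ± 0.53 for E9 (n = 6) and 3.08 ± 0.80 for E14 (n = 8), and its part in these counts was not tested.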
